A study of Mus musculus with 2 samples.

Results

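Cytochrome P450 family 2, with gene names that begin with Cyp2, is the largest P450 family of the mouse and holds most of the enzymes that liver uses to oxidize drugs, steroids, fatty acids and small toxicants. Each enzyme sits in the membrane of the endoplasmic reticulum, binds a heme, and takes electrons from P450 oxidoreductase, which the gene Por encodes, and in some reactions from cytochrome b5. Most of the genes stand in tandem clusters that arose by duplication, their expression depends on hepatocyte transcription factors such as HNF4A and on nuclear receptors such as the constitutive androstane receptor, and it falls quickly when hepatocytes are taken into culture.

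The family was read in primary hepatocytes of 2 genotypes on 1 array each, without replicates. Its members were all array probes of transcripts whose gene name consists of Cyp2, letters and a closing number, which gave 48 genes with 68 probes out of 37074 gene names and 56605 probes in all. Drp1LiKO mice lack *Drp1* in the liver (gene *Dnm1l*, the dynamin-related GTPase of mitochondrial fission). They carry both floxed *Drp1* alleles and a *Cre* transgene under the albumin promoter, which acts in hepatocytes. The control is labelled wild type, and the study's methods describe controls as *Drp1* flox/flox mice without *Cre*. Both had the C57BL/6 background, and neither the number of animals behind a culture nor their age and sex are given in the labels. The liver was perfused with collagenase, hepatocytes were pelleted at low speed and plated on collagen in high-glucose medium with insulin and serum, and RNA of the whole culture was taken 24 h after seeding, with no further treatment.

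Values are processed fluorescence signals of 60-base probes, and ratios are log2 of Drp1LiKO over control after each array was scaled to its 75th percentile. On the raw signals the Drp1LiKO array was brighter by 0.18 (log2) at that percentile, so a gene without a difference has a ratio of 0 and a slightly higher raw signal in Drp1LiKO. A gene was counted as detected when its probe was well above background on at least 1 array and was represented by its brightest probe. The threshold was a Z score of at least 2, in either direction, over the 30275 detected probes. It lay at log2 ratios of 1.30 and -1.31, or 2.46-fold higher and 2.48-fold lower. With 1 array per genotype no test between genotypes exists, no p-value is given, and the spread between cultures is unknown. A change in the share of a cell type and a change in RNA per cell cannot be told apart in RNA of a whole culture.

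Of all 20165 detected genes, 3.46% were past the threshold on the higher side and 2.76% on the lower side. The *Dnm1l* probe used fell short of it, with signals of 2602 in control and 1217 in Drp1LiKO (log2 ratio -1.28), and a dim second probe gave 22.8 and 20.9 (-0.31). Whether either probe lies in the deleted exons is not given in the sources used here. Between 48.2% and 52.1% of the probes were well above background, no probe was saturated, and spots printed repeatedly on an array differed with a median SD of 0.038 (control) and 0.042 (Drp1LiKO) on the log2 scale, or 0.22 and 0.29 at signals under 64. This covers spot noise only. All 15 hepatocyte markers, such as *Alb* and *Ttr*, were detected (median ratio 0.10, 9 higher, 6 lower, 1 past the threshold), and their summed signal was 857655 in control and 956592 in Drp1LiKO. These sums are of raw signals, before scaling, and without *Serpina1a*, the brightest in control, they were 519169 and 617258. The markers were not uniform: 3 were at least 2-fold higher and 1 at least 2-fold lower. Their ratios ran from -1.05 (*G6pc*, well above background on 1 array only) to 1.83 (*Ahsg*, the gene past the threshold).

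Sequences of the promoters are shown here because the results below divide in part along the gene clusters, and the closest duplicates share nearly all of their promoter. RefSeq promoters of the GRCm38.p6 build were found for 40 of the 48 genes. Each line gives the 130 bases just before the annotated start of transcription, 5′ to 3′ on the strand of the gene. Capitals mark the TATA word TATAAA, or TTTATA where it reads on the other strand, and the word CAAAGTCCA, a form of the direct repeat that HNF4A binds. The first lines are the 4 Cyp2a genes, then the Cyp2b pair Cyp2b9 and Cyp2b13 with Cyp2b10, then Cyp2f2, all in 1 cluster on chromosome 7. Cyp2a4 lies at chr7:26307062-26307191 (+), Cyp2a5 at chr7:26835209-26835338 (+), Cyp2a22 at chr7:26939387-26939516 (-), Cyp2a12 at chr7:27028960-27029089 (+), Cyp2b9 at chr7:26173279-26173408 (+), Cyp2b13 at chr7:26061365-26061494 (+), Cyp2b10 at chr7:25897528-25897657 (+) and Cyp2f2 at chr7:27119825-27119954 (+).
Cyp2a4: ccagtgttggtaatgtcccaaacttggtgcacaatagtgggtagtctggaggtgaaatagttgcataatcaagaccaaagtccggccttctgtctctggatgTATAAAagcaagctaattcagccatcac
Cyp2a5: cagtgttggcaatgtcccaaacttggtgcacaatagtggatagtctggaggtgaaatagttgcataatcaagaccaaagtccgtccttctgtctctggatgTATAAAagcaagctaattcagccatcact
Cyp2a22: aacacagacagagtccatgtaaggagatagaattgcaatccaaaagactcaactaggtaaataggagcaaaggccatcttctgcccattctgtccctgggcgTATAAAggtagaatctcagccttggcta
Cyp2a12: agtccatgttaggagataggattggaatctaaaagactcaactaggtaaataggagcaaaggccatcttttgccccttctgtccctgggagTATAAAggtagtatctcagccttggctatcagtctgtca
Cyp2b9: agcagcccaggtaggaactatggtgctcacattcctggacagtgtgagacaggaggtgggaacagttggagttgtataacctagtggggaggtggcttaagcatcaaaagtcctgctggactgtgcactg
Cyp2b13: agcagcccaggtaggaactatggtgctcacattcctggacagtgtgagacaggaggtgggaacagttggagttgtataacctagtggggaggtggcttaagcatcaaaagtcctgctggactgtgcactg
Cyp2b10: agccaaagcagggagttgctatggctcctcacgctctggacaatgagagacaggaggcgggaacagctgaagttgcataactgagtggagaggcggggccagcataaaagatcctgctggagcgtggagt
Cyp2f2: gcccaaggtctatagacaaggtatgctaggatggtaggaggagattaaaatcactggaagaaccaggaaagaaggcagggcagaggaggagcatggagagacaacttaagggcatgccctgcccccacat

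The Cyp2a4 and Cyp2a5 promoters were identical in 294 of 301 aligned positions over the full 300-base window (97.7%), and those of Cyp2a12 and Cyp2a22 in 262 of 311 (84.2%). Cyp2b9 and Cyp2b13 were identical in 298 of 300 (99.3%), and within the 130 bases shown they do not differ. TATAAA stands at -28 in Cyp2a4, -29 in Cyp2a5, -28 in Cyp2a22 and -39 in Cyp2a12, counted from the start of transcription. Between subfamilies of the cluster the promoters were much less alike (49.0% for Cyp2a4 and Cyp2b9, 44.6% for Cyp2a5 and Cyp2b10, 44.0% for Cyp2a12 and Cyp2f2). None of the 3 words was found in the windows of Cyp2b9, Cyp2b10 and Cyp2f2.

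The next lines show 5 Cyp2c genes of the cluster on chromosome 19 and Cyp2e1, which stands alone far along chromosome 7. The Cyp2c genes are shown because the exact word CAAAGTCCA was found only in Cyp2c genes within the family. Near matches were not searched for, and the lines of Cyp2a4 and Cyp2a5 above hold caaagtccg, which differs in its last base. Cyp2c70 lies at chr19:40187287-40187416 (-), Cyp2c67 at chr19:39649043-39649172 (-), Cyp2c68 at chr19:39741102-39741231 (-), Cyp2c40 at chr19:39812815-39812944 (-), Cyp2c69 at chr19:39886770-39886899 (-) and Cyp2e1 at chr7:140763689-140763818 (+).
Cyp2c70: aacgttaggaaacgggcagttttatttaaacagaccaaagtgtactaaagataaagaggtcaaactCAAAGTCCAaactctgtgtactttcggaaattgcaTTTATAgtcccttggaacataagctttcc
Cyp2c67: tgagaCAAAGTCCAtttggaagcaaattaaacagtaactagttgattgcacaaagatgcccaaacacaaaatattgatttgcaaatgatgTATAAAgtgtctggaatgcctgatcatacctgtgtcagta
Cyp2c68: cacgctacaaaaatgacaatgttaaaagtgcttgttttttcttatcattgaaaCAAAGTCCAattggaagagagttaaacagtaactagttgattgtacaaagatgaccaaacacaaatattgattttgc
Cyp2c40: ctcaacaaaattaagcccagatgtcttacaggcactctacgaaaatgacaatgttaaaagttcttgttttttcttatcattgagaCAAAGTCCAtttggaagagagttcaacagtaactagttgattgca
Cyp2c69: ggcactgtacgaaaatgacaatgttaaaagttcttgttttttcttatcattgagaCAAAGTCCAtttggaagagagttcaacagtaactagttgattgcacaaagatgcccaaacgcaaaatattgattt
Cyp2e1: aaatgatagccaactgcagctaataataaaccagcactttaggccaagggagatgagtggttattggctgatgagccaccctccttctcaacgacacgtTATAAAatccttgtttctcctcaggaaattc

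These 40 genes had 42 promoters in RefSeq. Over both strands of the 300-base windows, TATAAA was present in 21 of the 42 (50.0%) and in 13.6% of all 32851 promoters. CAAAGTCCA was present in 6 of 42 (14.3%; the 5 genes above and Cyp2c65) and in 0.475% of all promoters. TTCNNNGAA, the core that STAT5 binds, was present in 1 of 42 (2.38%; Cyp2j11) and in 8.30% of all. These are matches of letters, and no binding was measured.

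Most detected Cyp2 genes had a higher ratio in Drp1LiKO hepatocytes. Of the 48 genes, 38 were detected, 36 of them on both arrays, and 29 had a ratio above 0 and 9 below, whereas of all genes 44.5% were above 0 and 55.5% below. Past the threshold were 7 Cyp2 genes on the higher side (18.4%, against 3.46% of all genes) and 0 on the lower side (2.76% of all genes). The median ratio was 0.30 over the detected Cyp2 genes and -0.05 over all genes. At 2-fold in place of the Z score, 9 Cyp2 genes were higher and 1 lower, with 5.27% and 4.54% of all genes. The 10 genes without a signal well above background on either array were Cyp2ab1, Cyp2b13, Cyp2b19, Cyp2b23, Cyp2c39, Cyp2c65, Cyp2c66, Cyp2g1, Cyp2j11 and Cyp2t4.

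**Figure D1:**
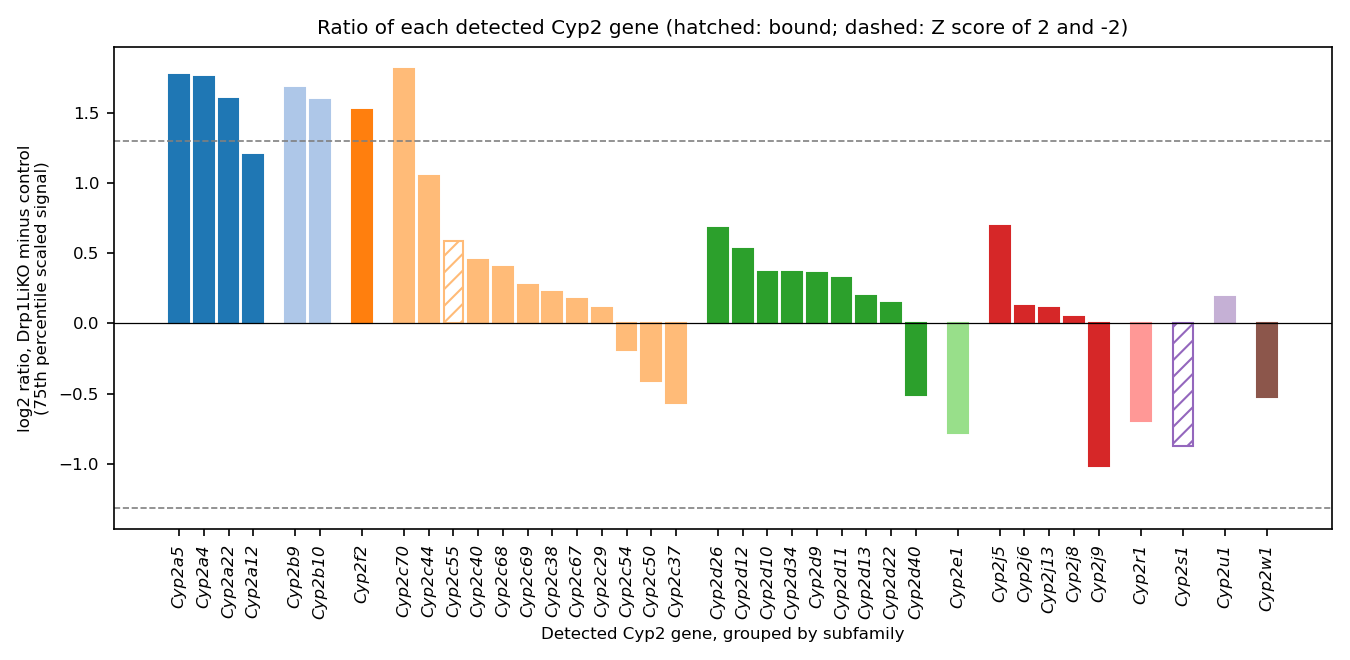
Log2 ratio of Drp1LiKO over control for each of the 38 detected Cyp2 genes, grouped by subfamily (x axis) and colored by it. Hatched bars are bounds (1 array not well above background) and dashed lines mark Z scores of 2 and -2; all Cyp2a, Cyp2b and Cyp2f bars are above 1, and of the others only those of Cyp2c70 (1.81) and Cyp2c44 (1.05) are.

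The highest ratios lay mostly in the Cyp2a, Cyp2b and Cyp2f subfamilies. All 7 detected genes of these subfamilies were higher, 6 of them past the threshold, with a median ratio of 1.60 and a range from 1.20 to 1.77. The 31 other detected Cyp2 genes had a median of 0.18, with 22 higher, 9 lower and 1 past the threshold. The grouping was made with the values known and describes them.

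The Cyp2a enzymes hydroxylate coumarin, nicotine and steroids. Cyp2a5, the coumarin hydroxylase, read 7345 on the control array and 28392 on the Drp1LiKO array (log2 ratio 1.77, 3.41-fold). Cyp2a4, a steroid hydroxylase, had 4465 and 17126 (1.76, 3.38-fold). The ratios of the pair differed by less than the spot noise, and its promoters shown above differ at few positions. Their transcripts are close paralogs, and whether each probe reads only its own gene was not tested. No probe of another gene matched the probe of either over 40 bases at 75% identity. That comparison leaves out the transcripts, so it cannot decide the point, and the ratios of the pair may not be separate measurements. Cyp2a22 had signals of 277 and 952 (1.60, 3.02-fold). Cyp2a12, a hydroxylase of bile acids and steroids, had 2712 and 7077 and a ratio of 1.20 (2.30-fold), the nearest value outside the threshold, whereas the nearest inside was that of Cyp2f2.

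The Cyp2b enzymes include the phenobarbital-inducible P450s of mouse liver. Cyp2b10, the standard target gene of the constitutive androstane receptor, had signals of 102 and 349 (1.59, 3.02-fold) on its brighter probe. Its other probe read 7.18 in control, not well above background, and 22.9 in Drp1LiKO, so that it gives only a bound of 0.15. Cyp2b9, which is known to be higher in female liver, had 41.5 and 150 (1.68, 3.20-fold). The other 3 Cyp2b genes were not detected, among them Cyp2b13 (4.54 and 3.72), whose promoter is nearly that of Cyp2b9. Both Cyp2b genes detected were thus past the threshold, from control signals of 102 or less. Cyp2f2, which activates naphthalene and marks hepatocytes near the portal vein, had bright signals of 9496 and 31002 (1.52, 2.88-fold).

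**Figure D2:**
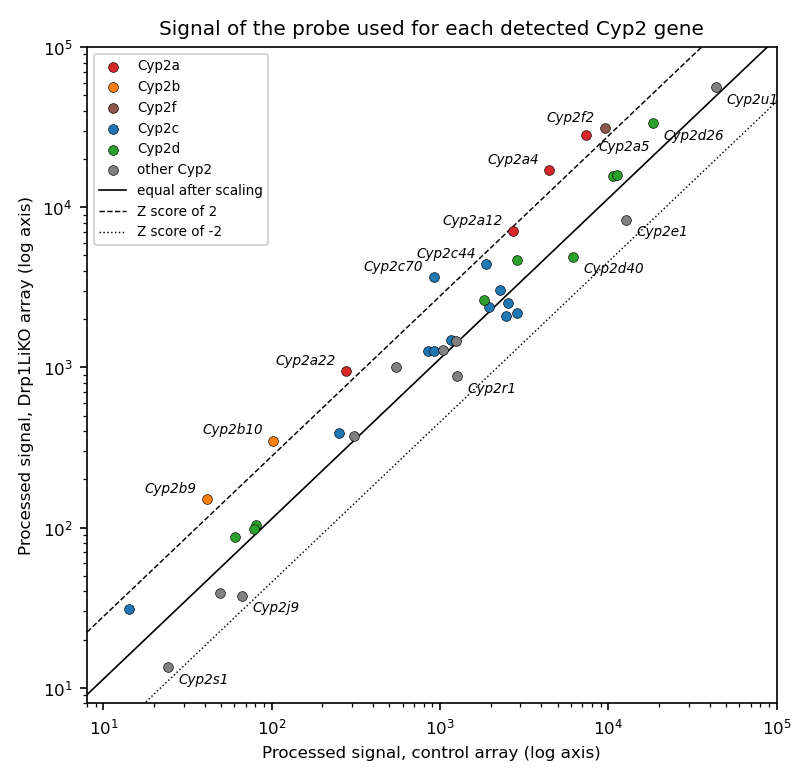
Processed signal of the probe used for each detected Cyp2 gene on the control array (x) and the Drp1LiKO array (y), both log axes, colored by subfamily. The solid line marks equal values after scaling and the other lines Z scores of 2 and -2; the Cyp2a, Cyp2b and Cyp2f genes run along the upper line over signals from 41.5 to 9496 in control, with Cyp2a12 just under it.

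By position, these genes form the Cyp2 cluster of chromosome 7, which spans 1356 kb of mm9, the build of the array files, from chr7:26587495 to 27943565. It held 8 detected Cyp2 genes with a median ratio of 1.60, of which 7 were higher and 6 past the threshold. The eighth, Cyp2s1 at the first end of the cluster, was lower. Within the same span, 6 other genes were detected with a median of -0.20 (2 higher, 4 lower, 0 past the threshold), the highest being Nlrp9c at 1.12. These neighbours thus stood near 0 or below the Cyp2 genes from Cyp2b10 to Cyp2f2. Cyp2e1 (chr7:147960628-147960687) and Cyp2r1 (chr7:121693769-121693828) lie on the same chromosome outside the cluster, and both were lower in Drp1LiKO.

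**Figure D3:**
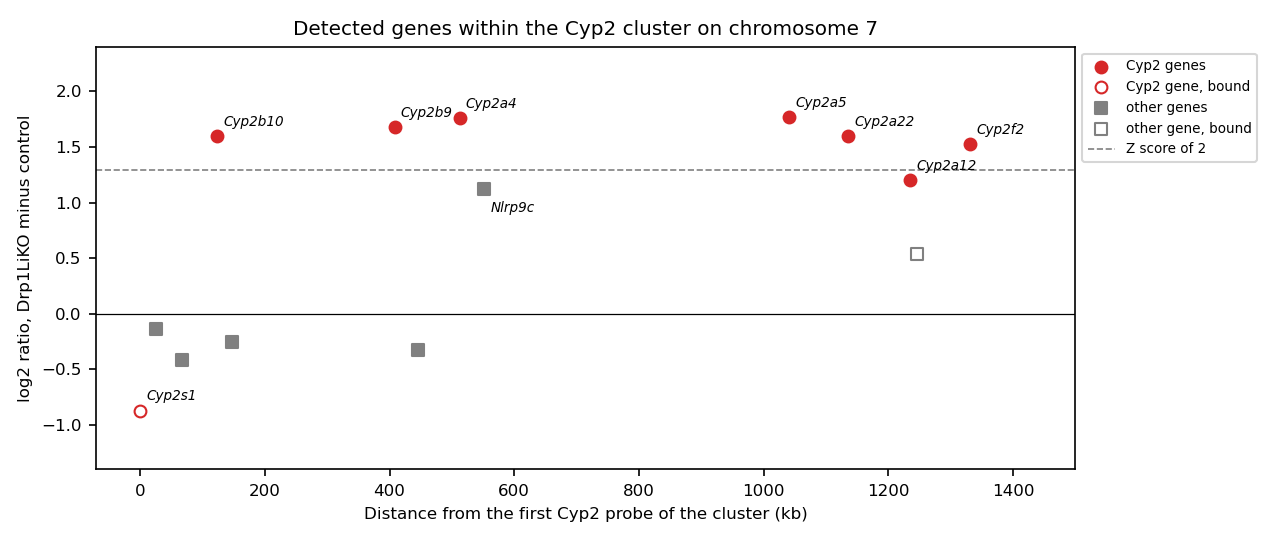
Log2 ratio (y) of every gene detected within the Cyp2 cluster of chromosome 7 by distance in kb from its first Cyp2 probe (x); circles are Cyp2 genes, squares other genes, open symbols bounds. From Cyp2b10 to Cyp2f2 all 7 Cyp2 genes lie between 1.20 and 1.77, while Cyp2s1 (-0.87) and 5 of the 6 other genes lie well under 1.

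The Cyp2c genes, epoxygenases of arachidonic acid and metabolizers of drugs and steroids, differed among themselves. Of 15 genes 12 were detected, with 9 higher, 3 lower and a median of 0.25. Cyp2c70, which makes the muricholic acids of mouse bile, had signals of 918 and 3661 and a ratio of 1.81 (3.51-fold), the highest of the family. Cyp2c44, an epoxygenase that lies apart from the cluster on chromosome 19, had 1883 and 4420 (1.05, 2.07-fold), and its other probe had 208 and 515 (1.13). Both probes of Cyp2c44 thus gave nearly the same ratio, under the threshold. Cyp2c55 was well above background only in Drp1LiKO (14.2 and 31.0) and was at least 1.50-fold higher. Its ratio was 0.05 after normexp and 0.30 in the deposited normalized values.

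The remaining 9 Cyp2c genes lay between -0.57 and 0.45. Cyp2c40, Cyp2c67, Cyp2c68 and Cyp2c69, neighbours with the same CAAAGTCCA word as Cyp2c70, had ratios of 0.45 (signals 250 and 387), 0.17 (1164 and 1487), 0.40 (845 and 1266) and 0.27 (923 and 1266). Whether the word bears on any of these ratios was not tested. The probes of Cyp2c67 and Cyp2c68 were identical in 55 of 59 overlapping bases (93.2%), so that each may also read the transcript of the other. The first 30 bases of that overlap are printed next, with the differing bases in capitals. The whole probes lie at chr19:39683429-39683488 (-) and chr19:39763420-39763479 (-) of mm9.
Cyp2c67: acAcagtcccagAaattccatctatattcc
Cyp2c68: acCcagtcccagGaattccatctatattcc

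Of the 5 Cyp2c genes known to be inducible through the constitutive androstane receptor, Cyp2c55 was higher, as a bound, and the others had ratios close to 0 or below it. Cyp2c29 had signals of 1954 and 2389 (0.11), Cyp2c37 2854 and 2185 (-0.57, 1.48-fold lower), Cyp2c50 2451 and 2097 (-0.41) and Cyp2c54 2539 and 2528 (-0.19). With Cyp2b10 and Cyp2c55 the list of 6 Cyp2 targets of that receptor had 3 genes higher and 3 lower, 1 past the threshold, and a median of -0.04. As 5 of the 6 are Cyp2c genes and the list is not complete, this median describes the listed genes only. Whether the probes of Cyp2c37, Cyp2c50 and Cyp2c54 each read only their own gene was not tested. Cyp2c38 had 2280 and 3025 (0.23). The chromosome 19 cluster of 1118 kb held 11 detected Cyp2c genes with a median of 0.23, of which Cyp2c70 alone was past the threshold.

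The Cyp2d genes, whose enzymes oxidize many amine drugs, had small ratios, mostly above 0. All 9 were detected, 8 were higher and 0 past the threshold, with a median of 0.36. Cyp2d26 was at the top, with signals of 18454 and 33575 on one probe (0.68, 1.60-fold) and 5431 and 8850 on the other (0.52). Cyp2d10 had 10623 and 15549 (0.37), Cyp2d11 11212 and 15942 (0.33), Cyp2d12 2867 and 4706 (0.53) and Cyp2d9, which is known to be higher in male liver, 1822 and 2650 (0.36). The dim genes Cyp2d13, Cyp2d22 and Cyp2d34 lay at 0.19, 0.15 and 0.36. Cyp2d40 was the exception, with 6145 in control and 4901 in Drp1LiKO (-0.51, 1.42-fold lower). These 9 genes lie within 420 kb of chromosome 15 (chr15:82201687-82621829, mm9), so their tandem cluster had a median of 0.36 where that of chromosome 7 had 1.60.

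The Cyp2j genes, epoxygenases of fatty acids, stood near 0 except at both ends. Of 6 genes 5 were detected, with a median of 0.11. Cyp2j5 had 544 and 1001 (0.70, 1.62-fold), and Cyp2j9, the lowest ratio of the family, had 66.8 and 37.5 (-1.01, 2.02-fold lower). The size for Cyp2j9 depended on the processing, with ratios from -1.11 to -0.55 over the settings. Cyp2j6 (1047 and 1294), Cyp2j8 (1238 and 1453) and Cyp2j13 (306 and 376) had ratios of 0.12, 0.05 and 0.11, and a dim second probe of Cyp2j6 gave -0.23. The other probes of Cyp2j5, Cyp2j9 and Cyp2j13 were not well above background on either array.

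Of the detected genes that stand alone in their subfamily, Cyp2f2 (1.52, given above) was higher, whereas Cyp2e1, Cyp2r1, Cyp2s1 and Cyp2w1 were lower. Cyp2u1, whose probes disagreed, is given below. Cyp2e1, which oxidizes ethanol, acetaminophen and other small molecules and marks hepatocytes around the central vein, had 12679 in control and 8360 in Drp1LiKO (-0.78, 1.72-fold lower). Its second probe had 3027 and 1616 (-1.09), so both probes were lower, under the threshold. Cyp2r1, the microsomal vitamin D hydroxylase of liver, had 1263 and 884 (-0.70, 1.62-fold lower). Cyp2s1 and Cyp2w1, known mainly from tissues other than liver, were dim: Cyp2s1 had 24.2 in control and was not well above background in Drp1LiKO (13.5, at least 1.83-fold lower), and Cyp2w1 had 49.3 and 38.9 (-0.53). The size for Cyp2s1 depended on the processing, with ratios of -0.38 after normexp and -0.18 in the deposited normalized values.

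Cyp2u1, a fatty acid hydroxylase, had no settled direction, because its 3 probes disagreed. The brightest probe, at chr3:130996343-130996402 (-) of mm9, had 43510 and 56129 (0.18). The others had 117 and 54.8 (-1.28) and 80.7 and 58.3 (-0.65). The bright probe holds 15 TG pairs in a row, a run of at least 10 such pairs that 75 probes of the array share in one strand or the other, and it was at least 75% identical to probes of 19 other genes, the only Cyp2 probe of that kind beside the Cyp2c67 and Cyp2c68 pair. A stretch of 30 of its bases is shown for that reason, with the repeat in capitals, and it ends inside the repeat.
Cyp2u1: ttggTGTGTGTGTGTGTGTGTGTGTGTGTG

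Known zonation and sex-biased groups cut across the subfamilies. Of 6 Cyp2 genes that are higher around the central vein, Cyp2e1, Cyp2c37, Cyp2c50 and Cyp2c54 were lower and Cyp2c29 and Cyp2a5 higher. Their median was -0.30, with Cyp2a5 alone past the threshold. Cyp2c29, Cyp2c37, Cyp2c50 and Cyp2c54 are also on the list of targets of the constitutive androstane receptor. The medians of these lists are thus not separate observations. The portal gene Cyp2f2 was past the threshold on the higher side. All 4 detected Cyp2 genes known to be higher in female liver were higher in Drp1LiKO, with a median of 1.06. Cyp2a4 and Cyp2b9, both of the chromosome 7 cluster, were past the threshold, as were 3.46% of all genes on that side. Cyp2c40 (0.45) and Cyp2c69 (0.27) were not. The male-biased list held only Cyp2d9, at 0.36, and a difference by sex bias was not tested.

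The genes that serve the P450 enzymes differed less than Cyp2a, Cyp2b and Cyp2f. All 7 electron donors and heme genes were detected, 5 higher and 2 lower, with 0 past the threshold and a median of 0.27. *Por* had 13196 and 19274 (0.36) and *Cyb5a*, cytochrome b5, 24942 and 34130 (0.27). The highest were *Hmox1*, which degrades heme, at 0.93 and *Alas1*, the first enzyme of heme synthesis, at 0.85, and *Cyb5r3* was lowest at -0.40. Of 21 nuclear receptors and other regulators 18 were detected, 9 higher and 9 lower, with a median of 0.00. Only *Nr1i3*, the constitutive androstane receptor, was past the threshold, with dim signals of 19.9 in control and 104 in Drp1LiKO (2.20), while *Hnf4a* had 4631 and 5608 (0.09). *Esr1* (-1.06) and *Nr1h4*, the bile acid receptor (-1.03), were lowest, and *Nr1i2*, *Nr0b2* and *Cux2* were not detected.

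Most of the genes listed from P450 families 1, 3 and 4 were also higher. Of 20 genes listed 19 were detected, 17 higher and 2 lower, with a median of 1.02. Past the threshold were 9 on the higher side and 1 on the lower (47.4% and 5.26%, against 3.46% and 2.76% of all genes). Most of these 9 were Cyp3a paralogs, and whether each probe reads only its own gene was not tested. Some listed genes lay near 0, such as Cyp3a13 (0.12) and Cyp4v3 (0.17), and Cyp4f15 was lower (-0.72). The highest was Cyp4b1 (2.61), and Cyp3a44 was lowest, well above background only in control (82.1 and 3.30). Most detected markers of macrophages, endothelial cells and stellate cells also had higher signals in Drp1LiKO, whereas cholangiocyte markers were divided. Of 14 detected Kupffer cell and macrophage markers 13 were higher, 10 past the threshold (median 2.28, from -0.28 to 3.45), with *Timd4* not detected. Their summed signal was 15249 in control and 32812 in Drp1LiKO, or 8842 and 24393 without *Cd14*, the brightest in control. The 10 endothelial markers were all higher, 5 past the threshold (median 1.46, sums of 4599 and 9624), and of 9 detected stellate cell markers 8 were higher, 4 past it (median 1.07), with *Lrat* not detected. The stellate sums of 21958 and 30178 were mostly *Acta2* (21437 and 24640, ratio 0.02), without which they were 522 and 5538, and the endothelial sums without *Egfl7*, the brightest of that list, were 826 and 2683. Of 4 detected cholangiocyte markers 2 were higher and 2 lower (median 0.09, sums of 29379 and 24885), with *Epcam* and *Cftr* not detected. The part of these cells in the Cyp2 ratios was not tested.

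**Figure D4:**
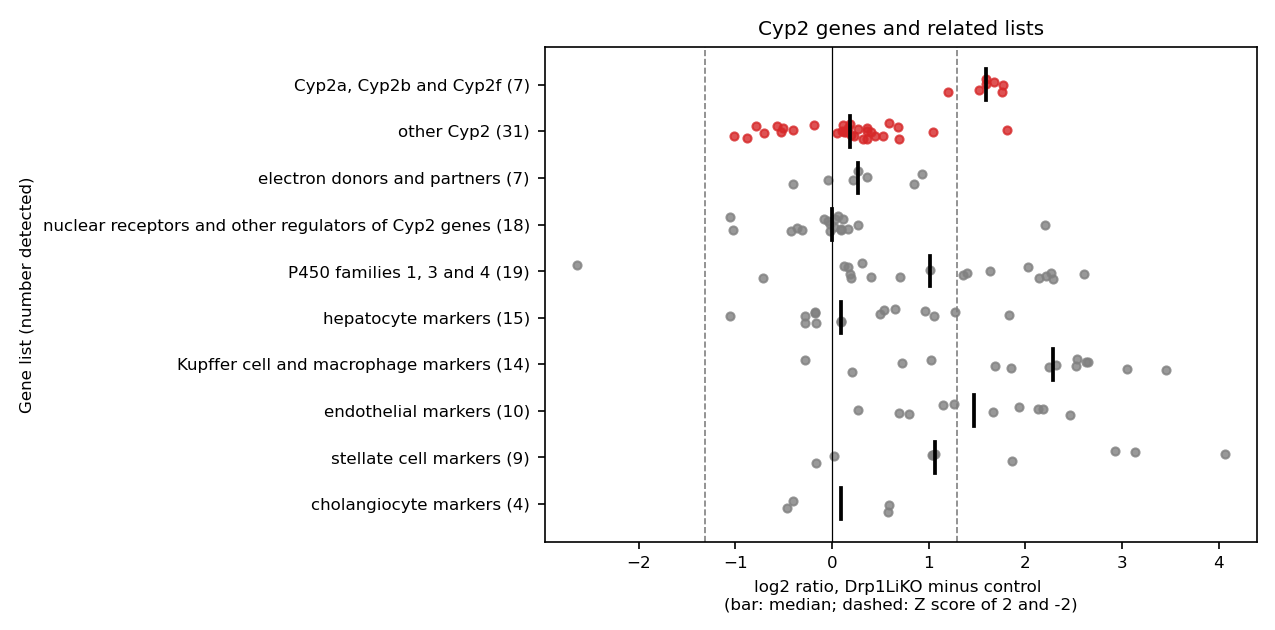
Log2 ratio (x) of each detected gene, 1 point per gene, by list (y, number detected in brackets), with black bars at the median and dashed lines at Z scores of 2 and -2. The median of Cyp2a, Cyp2b and Cyp2f (1.60) lies to the right of those of the other Cyp2 genes (0.18), electron donors (0.27) and hepatocyte markers (0.10). Single points overlap, such as Cyp2c70 (1.81) and the hepatocyte marker *Ahsg* (1.83). P450 families 1, 3 and 4 (1.02) and endothelial markers (1.46) have medians in between, and macrophage markers a higher one (2.28).

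The 7 calls rest on the threshold more than on the ratios. When dim signals were not raised to the lowest signal well above background, the SD over the detected probes was 0.898, the threshold lay at 1.84 and 0 Cyp2 genes were past it, with the ratios of all 7 unchanged. Scored by the median absolute deviation, 10 Cyp2 genes were past the threshold on the higher side and 3 on the lower (Cyp2e1, Cyp2j9 and Cyp2s1), with 8.5% and 7.12% of all genes. For Cyp2b10 the median of its probes gave 0.87, under the threshold.

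**Figure D5:**
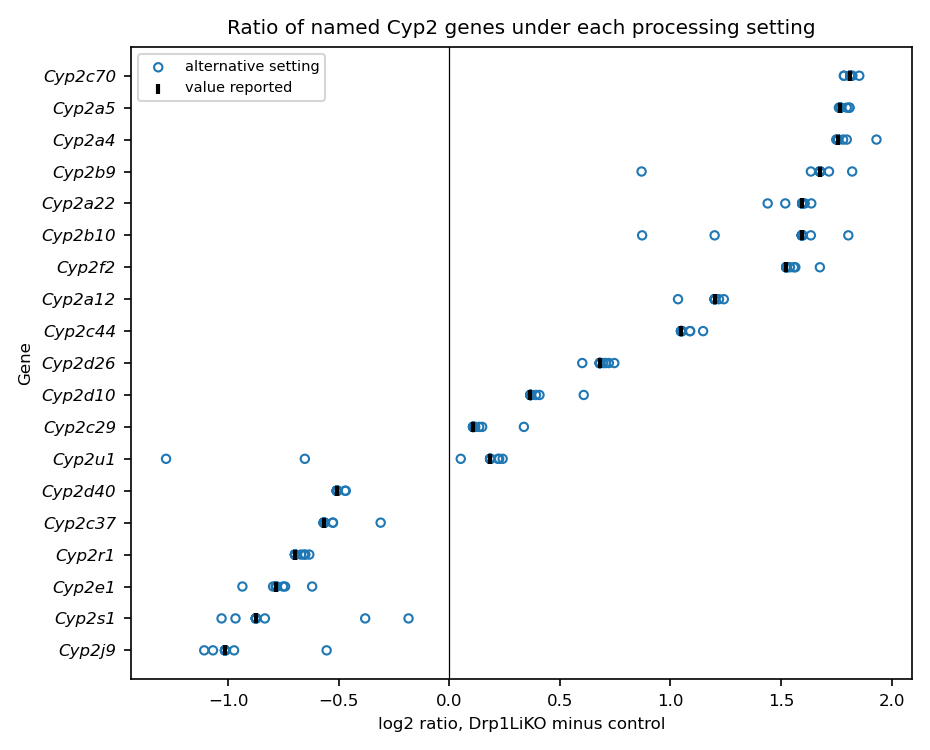
Log2 ratio (x) of named Cyp2 genes (y) as reported (black bars) and under each of 12 other processing settings (circles). Some of these settings, such as the robust Z score, cannot change a ratio. The Cyp2a genes, Cyp2f2 and Cyp2c70 stay within a narrow band above 1, Cyp2b9 and Cyp2b10 reach down to 0.87, and Cyp2u1 alone among these genes crosses 0.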

How the data were processed

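Total RNA of 1 control and 1 Drp1LiKO hepatocyte culture was labelled with a single dye and hybridised by the authors to Agilent mouse arrays of 60-base probes. For each array they deposited the scanner output with spot intensities, made by Agilent Feature Extraction (version 9.5.1.1 per the submitters' processing notes, 10.7.1.1 per the file headers), in which the processed signal is already background-corrected. A table of normalized intensities, also deposited, was made by a method not given in the sources used here. Over the 68 Cyp2 probes its columns had Spearman correlations with the arrays of 1.00 (control) and 0.993 (Drp1LiKO). Over all probes they were 1.00 and 0.958, so the order of the Drp1LiKO column was changed in part. This table was used as an alternative.

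Control spots and outlier spots were left out, the spots of each probe were averaged as log2 processed signals, and each array was centred on its 75th percentile. Dim signals were raised to the lowest signal well above background of the array (18.2 in control, 15.0 in Drp1LiKO), which makes such ratios bounds. The study names a Z score without its reference, so it was taken over detected probes (mean -0.01, SD 0.652). All Cyp2 genes are accounted for by subfamily. Named with signals are those past the threshold, the 10 brightest in control, the listed Cyp2 genes and the extremes of each subfamily, and most others were added. The members and all lists were chosen with earlier results of these data known. Genes carry the names that the array gives them. Of the 48, 47 are RefSeq symbols and 1 (Cyp2c44) a synonym. The number of arrays limits the precision. Steps were checked on simulated data. Python 3.11.15 with numpy 2.4.6 and pandas 2.3.3, and R 4.3.3 with limma 3.58.1 for normexp, were used. No replicate exists, so nothing was left out in turn.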

Additional observations from a re-analysis of the deposited data

How the results depend on the processing

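The 12 alternative settings changed scaling, background, filter, floor, probe choice or threshold, one at a time, and 1 of them, leaving out the repeat-bearing probe of Cyp2u1, was chosen after seeing the data. All 38 detected genes apart from Cyp2j6 (-0.06 to 0.22) and Cyp2u1 (-1.28 to 0.24) kept the sign of their ratio in every setting that gave one. Part of this is fixed by construction. The robust Z score and the 2-fold threshold change calls and no ratio. For Cyp2 genes measured on both arrays, the filters and the floor also left the ratio as it was. The same 7 genes were past the threshold with quantile normalization, spike-in scaling, the deposited table, outlier spots kept and the Cyp2u1 probe left out, and 9 with normexp. With no floor 0 genes were past it. On the lower side, the robust Z score called 3 genes and the 2-fold threshold 1 (Cyp2j9). The median of the detected Cyp2 genes was 0.22 with normexp, 0.40 in the deposited values and 0.16 with no filter, where all 48 genes enter and the median of all genes fell to -0.47. The Cyp2a median was 1.61 with normexp. In the deposited values the medians of Cyp2c, Cyp2d and Cyp2j were 0.35, 0.48 and 0.22. The Cyp2c median was 0.17 with no filter, and the Cyp2j median was 0.048 when a gene was the median of its probes. Where the settings' construction does not show it, the cause was not tested. Signal over background limits 2 detected genes to bounds. No paired analysis was possible because each genotype has 1 array and no test was run.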
